A study of Mus musculus with 4 samples.

Results

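Prrx1 encodes a paired-related homeodomain transcription factor of the early limb mesenchyme, and the region of mouse chromosome 1 that holds it carried one of the densest concentrations of TBX5 peaks in the forelimb bud. A total of 44 of the 11224 peaks listed had their summit in the 1.3 Mb from 164.7 to 166.0 Mb. The peaks were selected on their position alone, but the region was chosen by its high density of peaks, so the number of peaks and their closeness are given as a description. Signal and reproducibility score were not used in the choice. Peaks of 1 list come from the same libraries and are not replicates, so these measures are likewise described beside those of the whole list, and no test was made.

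TBX5 is a T-box transcription factor that is produced in the forelimb and not the hindlimb bud and is required for the forelimb to form. T-box proteins bind short DNA elements with the core letters GGTGT. PRRX1 is a long-standing marker of the limb mesenchyme, the loosely packed cells that give rise to the skeleton and connective tissue of the limb. Regulatory sequence from its locus is widely used to drive Cre recombinase in those cells. Developmental regulators of this kind often have enhancers, DNA elements that raise transcription from a distance, spread over the sequence to either side of the gene.

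TBX5 binding was measured by ChIP-seq, in which crosslinked chromatin is precipitated with an antibody and the recovered DNA is sequenced. Both groups consisted of wild type embryonic forelimbs of outbred ICR mice at embryonic day 10.5, and the labels name no treatment or transgene. The TBX5 ChIP group had 2 libraries, made with a polyclonal antibody against human and mouse TBX5, and the input group had 2. The labels do not say how many embryos were pooled, nor whether the 2 libraries of a group came from separate embryos, and a whole forelimb bud mixes mesenchyme with ectoderm and other cells, so a peak cannot be assigned to 1 cell type.

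The list gives 1 value per peak for the TBX5 ChIP group, with no value for a single library or for input, and depth is unknown. Each peak has a signal value, the strength given by the authors' peak caller on a scale that is not stated. It also has a score from the irreproducible discovery rate (IDR). The IDR is a rate of peaks that do not recur, estimated from the ranks in both replicates. The lowest score listed, 540, corresponds to an IDR of 0.05, a score of 830 to an IDR of 0.01, and 1000 is the ceiling.

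The placement of Prrx1 rests on the genome build. The submitters' processing notes name mm10, but 9 summits on chromosome 1 lay beyond the last gene of any kind that RefSeq places on that chromosome in GRCm38.p6, the last of them by 1.41 Mb. On the earlier build mm9 Prrx1 lies near 165.17 to 165.25 Mb, an approximate span of 80.0 kb that was not checked here against an annotation of that build. If the list is read on GRCm38.p6 instead, the gene lies outside the window, its span holds 0 summits, and the 1.3 Mb centred on it hold 4. All positions below are as listed, counted from 1, and all statements on the gene assume mm9. Peaks are numbered 1 to 44 in order of increasing coordinate. The gene is annotated on the minus strand, so its start faces higher coordinates. In the RefSeq gene order of GRCm38.p6, the nearest protein-coding gene before Prrx1 is Mroh9. After it come Gorab, Mettl11b, Kifap3, which encodes a kinesin-associated protein, and Scyl3.

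The sequence upstream of the Prrx1 start is shown because 3 peaks clustered near the end of the gene span that holds the start. The 250 bases before the start annotated by RefSeq on GRCm38.p6, minus strand, written 5′ to 3′ with the letters TAATTA in capitals, are:

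Prrx1: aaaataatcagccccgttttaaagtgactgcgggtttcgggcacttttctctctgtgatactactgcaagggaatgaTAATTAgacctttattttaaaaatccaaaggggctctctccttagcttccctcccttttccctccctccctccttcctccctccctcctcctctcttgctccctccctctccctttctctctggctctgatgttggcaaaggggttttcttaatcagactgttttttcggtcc

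How these bases lie relative to the peaks was not established, since the list and the sequence are on different builds. Searched on both strands, the T-box core GGTGT was not found in the 250 bases, nor were AGGTGT and AGGTGTGA, both of which contain it. Of 32851 RefSeq promoters of the same length, 36.2% held GGTGT, 11.8% AGGTGT and 1.12% AGGTGTGA. The absence says only that these letters are not in this stretch. TAATTA, the palindromic core to which homeodomain proteins such as PRRX1 itself can bind, was found at 1 place, beginning at position -173 relative to the start, and was held by 4.84% of promoters. The sequence also contains an unbroken run of 52 bases of C and T, from position -128 to position -77. A run of pyrimidines or of purines at least as long was present in 0.192% of the promoters. Such runs were not among the planned searches, so that share belongs to a feature picked from this sequence. These letter matches are descriptions of the sequence and not measured sites.

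Peaks were far more frequent across the Prrx1 window than in the list at large. The 44 peaks amounted to 33.8 per Mb, against 4.40 per Mb for the other 11180 peaks over the span they covered. When all chromosomes were divided end to end into 1979 windows of 1.3 Mb, the median window held 4 peaks and 288 windows held none. Only 2 of them held more peaks than the Prrx1 window and 1 held as many. On chromosome 1, the next densest of 149 windows held 31. With windows that overlapped by 50%, in place of end to end, the Prrx1 window was the sixth densest.

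**Figure D1:**
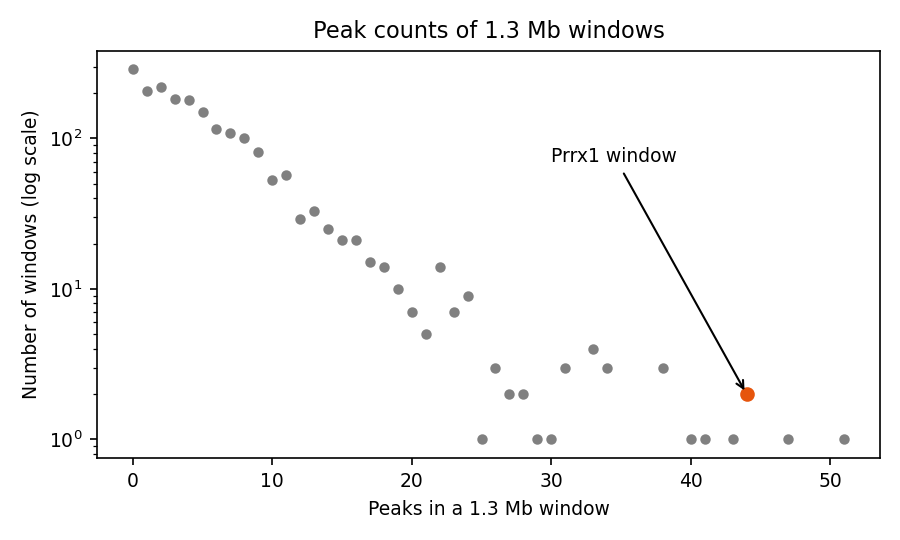
Number of 1.3 Mb windows (vertical axis, log scale) that hold each number of peaks (horizontal axis), for windows laid end to end over all chromosomes. The orange point marks windows with 44 peaks, which are the Prrx1 window and 1 other, and only the windows with 47 and 51 peaks lie to its right.

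Stretches without a listed peak lay on both sides of the region. From the first to the last summit the peaks spanned 1038 kb. The nearest summit below the first was 568.3 kb away, at 164232293 with a signal of 17.5 and a score of 582, and the nearest above the last was 525.9 kb away, at 166364268 with a signal of 38.5 and a score of 1000. Both of these bare stretches were longer than any gap inside the region, but stretches of at least the shorter length made up 11.2% of the 11204 gaps of the list. Beyond these stretches the sides differed. The 1.3 Mb just below the window held 26 peaks, against a median of 4 for windows of that length, all of them more than 500 kb from peak 1, whereas the 1.3 Mb just above held 3. Widening or narrowing the window by 100 kb on each side therefore changed no member.

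Inside the approximate gene span, 3 summits were listed, and all lay within 1.07 kb of each other near the high-coordinate end, where the gene starts. Peak 11 (165243496 to 165243911, summit at 165243704) had a signal of 33.1 and a score of 858. Peak 12 (165243711 to 165244126, summit at 165243919) overlapped it and had a signal of 12.0 and a score of 803. Peak 13 (165244679 to 165244845, summit at 165244773) was the strongest of the 3, with a signal of 43.1 and the ceiling score of 1000. None of these was among the 10 strongest of the region, and peak 12 lay in the lowest 10% of the whole list by signal. The rest of the span, which would hold most of the gene body, had no listed peak. The next summit towards lower coordinates was that of peak 10 at 165169197, 74.5 kb from peak 11 and just outside the approximate span, with a signal of 37.8 and a score of 1000. On the other side the next was peak 14 at 165286136, 41.4 kb from peak 13, with a signal of 30.5 and a score of 1000.

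Most peaks lay on the side of the gene start. The 750 kb at higher coordinates than the gene span held 31 peaks (41.3 per Mb), and the 470 kb at lower coordinates held 10 (21.3 per Mb). The median signal was 35.2 on the high side and 34.9 on the low side, so the sides differed in number and less in typical strength. The high side reached 121.5, and the strongest peak of the low side was peak 1, at 164800568, with a signal of 56.7. All 4 peaks of the region in the top 10% of the list lay on the high side. They were 12.9% of its 31 peaks, where the list by construction has 10%. With only 10 peaks on the low side, these values do not show that the sides differ in their upper range. Because the limits of the window were set without regard to the gene's neighbours, a peak on either side cannot be attributed to Prrx1 from its position.

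**Figure D2:**
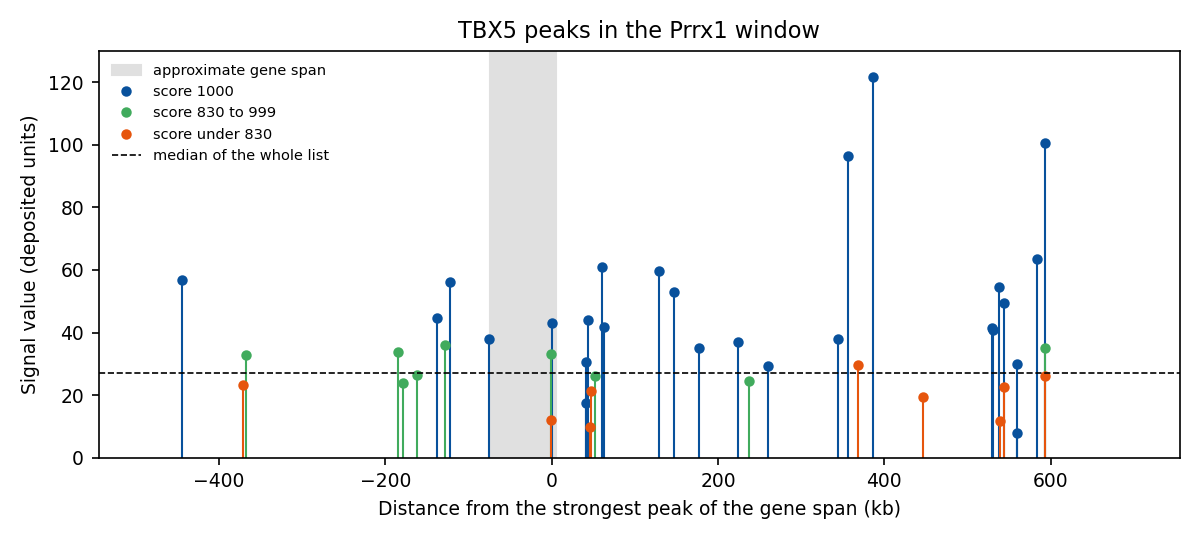
Signal value of each of the 44 peaks (vertical axis, deposited units) against its distance in kb from peak 13, the strongest peak in the approximate gene span (grey), with increasing coordinates to the right. Colours give the IDR score and the dashed line the median of the whole list (27.2), and the 3 tallest peaks, from 96.5 to 121.5, stand 356 to 593 kb to the right of peak 13.

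The strongest binding signals stood apart from the gene. Peak 31, at 165630756 to 165631008 with its summit at 165630882, had the highest signal of the region, 121.5, which was 4.47 times the list's median and ranked 151st of the 11224 peaks. Peak 42 followed, spanning 165837708 to 165837942 (summit at 165837807), with a signal of 100.4, and then peak 29, spanning 165600924 to 165601139 (summit at 165601030), with a signal of 96.5. Peaks 29 and 31 were 29.9 kb apart and held the weaker peak 30 between them. The fourth, peak 41, had its summit at 165828496, only 9.31 kb from peak 42, and a signal of 63.4. These 4 were the members in the top 10% of the list, which starts at a signal of 61.3.

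The next 6 strongest had signals close to one another. Peak 20, with its summit at 165304680, had a signal of 60.9, and peak 22, at 165374175, had 59.5. Peak 1 at 164800568 and peak 9 at 165121891, on the low side, had 56.7 and 56.2. Peak 35 at 165783121 had 54.6, and peak 23 at 165391661 had 53.1. All 10 of the strongest peaks had a score of 1000, and together they carried 41.6% of the summed signal of the 44. The order among peaks with similar signals has no replicate check.

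Signals across the region were higher than in the list at the middle of the distribution and not at its top end. The median of the 44 was 35.1, with quartiles of 25.8 and 45.8, against 27.15 (20.3 to 39.95) for all other peaks. A signal above the list's median was found for 30 of 44 peaks (68.2%), where the list by construction has 50.0%. The top 10% of the list, by contrast, included 4 of 44 (9.09%), where the list by construction has 10%. The lowest 10% included another 4. By the peak caller's q-value, 26 of 44 peaks (59.1%) shared the strongest value of the list, 3.95 on the −log10 scale, as did 38.6% of all peaks.

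The peaks were also more often scored as reproducible than the list as a whole. An IDR of 0.01 or below was reached by 35 of 44 (79.5%), against 60.0% of all peaks, and the ceiling score by 26 of 44 (59.1%), against 45.4%. Score and signal rise together in this list, so the excess of high scores and that of higher signals are not independent observations. Whether signal accounts for the scores was not tested. Across the 44 peaks Spearman's rho between them was 0.70, and across the 11224 it was 0.80. Every one of the 17 members with a signal of 40 or more had the ceiling score, as did 98.9% of such peaks in the list. Among the 14 members at or below the list's median signal, 6 of 14 had an IDR of 0.01 or below, against 24.8% of the 5612 such peaks in the list. The ceiling score was reached by 2 of 14, against 6.43%. Among the 30 members above that median, 29 had an IDR of 0.01 or below, against 95.1% of the list. The ceiling score was reached by 24 of 30, against 84.3%.

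**Figure D3:**
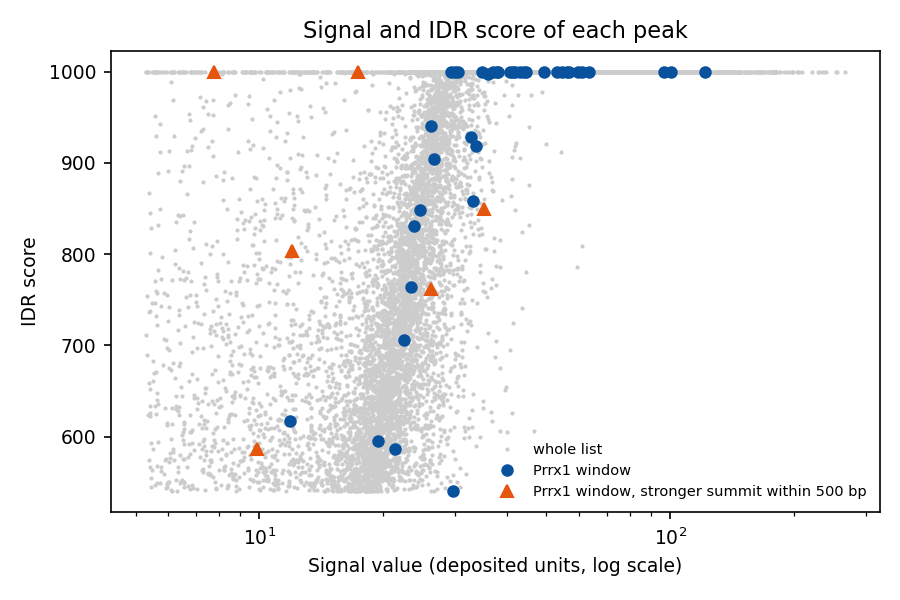
IDR score (vertical axis) against signal value (horizontal axis, log scale) for each peak of the list (grey) and for the 44 peaks of the Prrx1 window (blue circles, or orange triangles where a stronger summit lies within 500 bp). The members follow the rise of the list, and the circle at the bottom right of that rise is peak 30, with a signal of 29.5 and a score of 541.

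Scores were set beside those of peaks with similar signal for 2 members only, those with the lowest score and the lowest signal. Peak 30, at 165613101 to 165613516 with its summit at 165613309, had a signal of 29.5 and the lowest score of the region, 541, just inside the threshold of the list. Of 816 listed peaks with a signal within 5% of its own, the median score was 1000 and none but peak 30 scored as low. Its nearest summit was 12.3 kb away. The opposite was seen at peak 40, at 165804457 to 165804872 with its summit at 165804665, which had the lowest signal of the region, 7.78, with a q-value of 0.366 but the ceiling score. Peak 40 overlapped peak 39, whose summit lay 228 bp away and which had a signal of 30.0 and the same score. Of 86 listed peaks with a signal within 5% of that of peak 40, the median score was 680.5. Of these, 8 (9.30%) had the ceiling score, while 70 (81.4%) had a stronger summit within 500 bp. Peak 15, with a signal of 17.4 and a stronger summit within 500 bp, also had the ceiling score. It was not set beside peaks of similar signal.

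Spacing along the region included both compact groups and long intervals. The median distance between neighbouring summits was 9.31 kb, against 63.5 kb in the whole list. It would be 24.1 kb if the 44 had been spaced evenly between the first and the last. Randomly placed summits would also have a median below the even spacing. Whether the spacing was more uneven here than elsewhere in the list was not tested. Of the 43 intervals, 6 were shorter than 500 bp, where 10.3% of the list's gaps were. Another 16 measured from 500 bp to 10 kb, 14 from there to 50 kb and 7 were longer. Intervals of up to 10 kb made up 51.2% in the region, against 24.9% in the list. The longest, 182.4 kb or 17.6% of the span, separated peak 3 (summit at 164877459, signal 32.8) from peak 4 (summit at 165059824, signal 33.7). Both bounding peaks had a signal above the list's median and below that of the region. Another summit lay within 10 kb of 30 of the 44 peaks (68.2%), against 42.7% in the list.

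**Figure D4:**
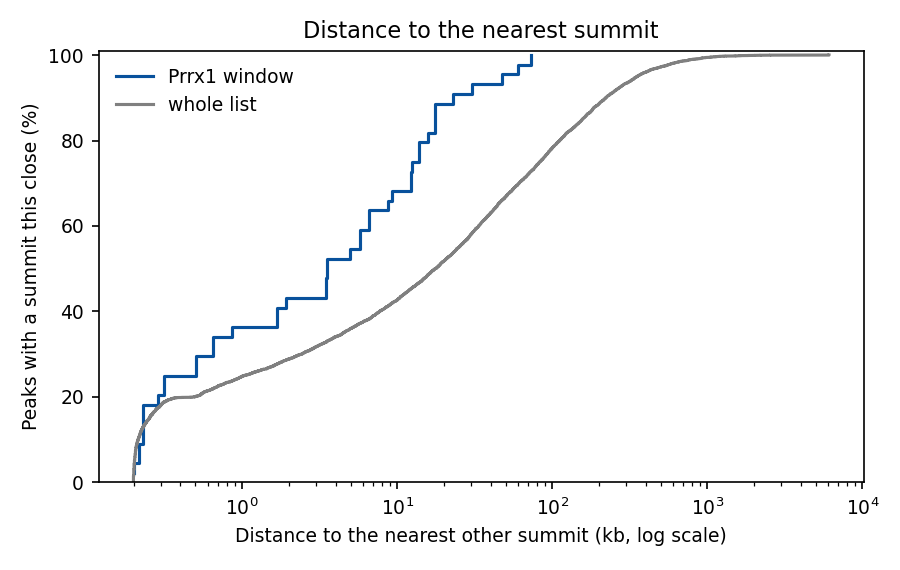
Cumulative percentage of peaks (vertical axis) whose nearest other summit lies within the distance on the horizontal axis (kb, log scale), for the Prrx1 window (blue) and the whole list (grey). The median distance was 3.53 kb in the window and 17.6 kb in the list, while the curves lie close together below 0.5 kb.

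When summits no more than 10 kb from the next were grouped, the region resolved into 22 groups, of which 14 were single peaks. The largest group was the nearest to the gene start on its upstream side. It held 8 peaks (14 to 21) between summits at 165286136 and 165308145, or 22.0 kb, with signals from 9.86 to 60.9. A second group of 6 peaks (33 to 38) spanned 14.5 kb from 165774242 to 165788759, with signals from 11.9 to 54.6. A group of 4 (41 to 44), from 165828496 to 165838320, held the second strongest peak of the region. By contrast, the strongest peak, 31, stood alone, 17.6 kb from its nearest neighbour. The other groups of 3 were the peaks near the high-coordinate end of the approximate gene span (11 to 13) and peaks 7 to 9 on the low side. Peaks 7 to 9 spanned 14.5 kb from 165107360 and had signals from 36.1 to 56.2. Summed signal was 252.3 for the group of 8, 220.55 for the group of 6 and 225.3 for the group of 4. In the groups of 8 and 4, overlapping peaks each added to the sum.

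Part of the closeness lay in overlapping intervals. There were 6 pairs of neighbouring summits closer than 500 bp. The intervals of every pair overlapped, as did those of 1098 of the 1149 such pairs in the list. A stronger summit within 500 bp was present for 6 of 44 peaks (13.6%), against 10.1% of the list. The closest pair was peaks 14 and 15, 201 bp apart, with signals of 30.5 and 17.4. The pair with the strongest member was peaks 42 and 43, 228 bp apart, with signals of 100.4 and 35.2, and peak 44 lay another 285 bp beyond with a signal of 26.2. Joining overlapping intervals left 38 sites and a median spacing of 13.7 kb. The weaker peak of a pair had 0.259 to 0.745 times the signal of the stronger, with a median of 0.412 in the region and 0.444 over 1149 such pairs in the list. In 2 of the 6 pairs both peaks were at the ceiling score, against 288 of the 1149 pairs in the list. Of the other 4 pairs, 1 had equal scores, against 347 of 861 such pairs (40.3%) in the list. A q-value above 0.05 was given to 2 of 44 peaks (4.55%), against 6.07% of the list, and both of these (17 and 40) belonged to such pairs.

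Interval width was mostly uniform. The width of 416 bp, the most frequent in the list, was shared by 34 of the 44, and the other 10 (22.7%) were narrower, from 159 to 289 bp, against 15.4% narrower in the list. The 10 narrow peaks had signals from 43.1 to 121.5 and the ceiling score. That score was also given to 98.3% of the 1728 narrower peaks of the list. They included peak 13 near the gene start, which at 167 bp was narrower than its neighbours, peaks 11 and 12. Peaks of the common width reached at most 56.7, the value of peak 1. Narrower intervals were mostly the stronger ones, with a Spearman's rho of -0.67 between signal and width over the 44 peaks and -0.56 over the list, where width is also a product of the peak caller.

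The Prrx1 window lay within the range of the other dense windows in most of the measures compared. The 5 other windows of 1.3 Mb with the highest counts lay on chromosomes 18 (51 peaks), 2 (47), 6 (44), 8 (43) and 14 (41). Their median signals were 32.8, 28.6, 29.8, 29.2 and 36.8 in that order, against 35.1 around Prrx1. Peaks of the list's top 10% made up 6.82% to 27.9% of them, against 9.09% here, with the lowest share on chromosome 6. Another summit lay within 10 kb of 56.1% to 81.4% of their peaks, against 68.2% here, and their median spacing was 7.90 to 19.2 kb, against 9.31 kb. The ceiling score was reached by 46.5% to 68.3% of the peaks in those 5 windows and by 59.1% here. Among all 72 windows with at least 20 peaks, 11 had a higher median signal, 16 a larger share at the ceiling score and 21 a larger share of peaks with a neighbour within 10 kb. None of these measures was tested for a difference between windows.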

How the data were processed

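The data analysed were 1 deposited table of peaks for TBX5 ChIP, without a header and in the narrowPeak column order. The file's name gives an IDR threshold of 0.05, and the submitters' processing notes name FastQC and the build mm10. Reads were single-end and 75 bp long, per the labels' protocols. The aligner, the peak caller, filters and any pooling of reads are not given in the sources used here, although each of them affects the peaks called and their strength. The deposited score is the scaled IDR, the deposited signal has no stated normalization, and the deposited −log10 q-value has a ceiling of 3.95. The deposited p-value column holds only a placeholder and was not used.

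Summits were taken as start plus offset, and the window limits and the approximate gene span from the definition of the region. The members, lists and measures were chosen with earlier results of these data known. Named were Prrx1, the 10 peaks with the highest signal, those in or next to the gene span, at the edges of the window and of the longest gap, the peaks with the lowest signal and score, the closest pair, and the pair with the strongest member. The peaks that bound groups or share a width or a q-value were named after their values were seen. Values were computed in Python 3.11.15 (SciPy 1.17.1, NumPy 2.4.6, pandas 2.3.3) and plotted with matplotlib 3.10.9. Window counts, closeness within 500 bp, the joining of overlapping peaks and Spearman's rho were tested on simulated data with known answers. The other measures were not. Of the neighbouring genes, only the nearest before Prrx1 and 4 after it are named, and the others are not reported here. Promoter sequence came from RefSeq (GRCm38.p6), in which 1 entry matched Prrx1. The table holds no depth, so no counting interval belongs to a signal value. The alternatives were stricter score, signal or q-value limits, joined peaks, other window limits and distances, either side of the gene, and another build.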

Additional observations from a re-analysis of the deposited data

How the results depend on the processing

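Of 53 alternative values computed, 45 stayed within 1.5 times the main value or, for a share, within its 95% exact binomial interval. That interval treats peaks as independent, which they are not, so it served only as a yardstick. The 45 also overstate the number of separate checks. Moving the window limits changed no member, so the median signal and the share above the list's median could not move. Joining overlapping peaks and leaving out peaks near a stronger summit gave the same values. AGGTGTGA contains the absent AGGTGT and could not be found. The median spacing of 9.31 kb became 14.7 kb at an IDR of 0.01 or below and 17.5 kb among peaks at or above the list's median signal, where fewer peaks are left. The third place of the window became the sixth with windows that overlapped by 50% (rank 6 in place of 3), and was between 2 and 4 otherwise. The share with another summit within 10 kb, 68.2%, was 43.2% within 2 kb and 95.5% within 50 kb. The share above the list's median signal was 82.9% at an IDR of 0.01 or below, and the share at that IDR was 96.7% among peaks at or above the median signal. Read on GRCm38.p6, 4 peaks in place of 44 lay in the 1.3 Mb around Prrx1. That alternative and those for either side of the gene were added after the data were seen. A limit on the signal or on the IDR makes its own share 100% and was not computed. No paired analysis was possible because single replicates have no values in the table, and for the same reason none was left out. Sites missed for lack of depth cannot be counted.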
